A study of Ovis aries with 15 samples.

Results

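The interferon-stimulated antiviral genes examined here were EIF2AK2, MX1, MX2, ISG15, IFIT2, IFIT3, RSAD2, IFIH1, IRF7 and IFI44. They were taken by symbol from the kidney expression table, all 10 were present among its 25592 genes, and all 10 were also among the 13193 genes tested. The choice named EIF2AK2 as high in the library CON replicate 5 and named AFB1 replicate 1 as a library with liver genes, so those values are given as description only.

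The kidneys came from male Dorper × Small-tailed Han sheep aged 4 months and fed for 21 days. The CON group received the basal ration, the AFB1 group received the same ration with 500 µg/kg dry matter of aflatoxin B1 (AFB1, a mould toxin), and the AFB1_CUR group received 500 µg/kg dry matter of AFB1 with 800 mg/kg dry matter of curcumin (CUR, the phenolic pigment of turmeric). AFB1 was thus carried by both treated groups, and no group received CUR alone. Poly(A) RNA was sequenced in 5 libraries per group, and the labels do not say whether each library was a separate sheep, so a p value here measures the spread between libraries. Groups follow the library titles, because the treatment field of the labels numbers the toxin upward from library to library in both treated groups.

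In vertebrate cells, type I interferons bind a receptor that activates the kinases JAK1 and TYK2, and transcription factors that include STAT2 and IRF9 then switch on a shared set of genes. Some of the products detect viral RNA, such as IFIH1 (also called MDA5, a sensor of long double-stranded RNA) and EIF2AK2 (also called PKR, a kinase that is activated by double-stranded RNA and phosphorylates eIF2α, which slows translation). IRF7 is a transcription factor that amplifies interferon production, and the remaining members act on the virus or on the response itself. Because they answer one signal, these genes are known to move together in most tissues, the kidney included.

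The summed counts ran from 50255295 to 68747047 per library. AFB1 replicate 1 stood apart as a whole: its hepatocyte markers summed to 56680 FPKM (a read count scaled by transcript length and library size) against 69.66 to 385.3 in the other 14 libraries, whereas the proximal tubule gene LRP2 was at 0.01 FPKM and the loop gene UMOD at 0.11 FPKM. The labelled tissue was kidney, and these defining kidney markers were near 0 there, so results are given with and without that library. The other 14 libraries held LRP2 at 30.17 to 134.4 FPKM and UMOD at 126.25 to 1734.16 FPKM.

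The members lie on 6 autosomes, given here by the coordinates of the expression table, whose genome build is not named in the sources used here. EIF2AK2 (chromosome 3, 86912763 to 86951063, plus strand) and RSAD2 (chromosome 3, 16737777 to 16756304, plus strand) share a chromosome but not a neighbourhood. MX2 (chromosome 1, 262303074 to 262335698, plus strand) and MX1 (chromosome 1, 262343364 to 262378059, plus strand) are adjacent, with 7665 bases between them. IFIT2 (chromosome 22, 10850972 to 10858816, plus strand) and IFIT3 (chromosome 22, 10865593 to 10875872, plus strand) are adjacent too, with 6776 bases between them. IFI44 lies on chromosome 1 (55103734 to 55169614, plus strand), IFIH1 on chromosome 2 (147486580 to 147546647, plus strand), ISG15 on chromosome 12 (50782014 to 50783069, minus strand) and IRF7 on chromosome 21 (47074774 to 47077834, plus strand). The MX, IFIT and IFI44 genes have close relatives, and reads that could belong to either relative make their separate levels less certain.

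All 10 members were high in the same few libraries, and each group held both high and low libraries. Over the 14 kidney-like libraries, CON replicate 5 and AFB1 replicate 3 held the 2 highest FPKM values of every member, 10 of 10. AFB1_CUR replicate 2 was the third highest for 8 members, and CON replicate 2 and AFB1 replicate 4 were the third highest for 1 member each.

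EIF2AK2 was measured at 2.99, 8.33, 5.77, 3.09 and 31.84 FPKM in CON replicates 1 to 5. In the AFB1 group it was at 14.03 FPKM in replicate 1 and at 6.68, 22.48, 8.06 and 7.84 FPKM in replicates 2 to 5. In the AFB1_CUR group it was at 6.22, 13.55, 5.77, 3.96 and 6.91 FPKM. The CON range thus enclosed both other groups, and its highest and lowest values were the highest and lowest of the whole series.

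IFIH1, the second RNA sensor, was at 4.77, 9.70, 5.52, 5.44 and 17.99 FPKM in CON. Its AFB1 values were 16.68 FPKM in replicate 1 and then 7.63, 14.50, 7.98 and 6.10 FPKM, and its AFB1_CUR values were 6.79, 10.28, 3.85, 5.35 and 7.80 FPKM. IFIH1 had the narrowest range of the 10 members, 4.67-fold between the highest and the lowest of the 14 kidney-like libraries. IRF7 was at 3.41, 7.16, 3.26, 1.75 and 14 FPKM in CON, at 15.07 FPKM in AFB1 replicate 1, at 4.59, 15.34, 4.93 and 1.49 FPKM in AFB1 replicates 2 to 5, and at 2.18, 8.85, 2.05, 2.48 and 3.65 FPKM in AFB1_CUR. For both genes the 3 groups overlapped.

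MX1 and MX2 encode dynamin-like GTPases that bind viral nucleocapsids or capsids. MX1 was at 4.24, 34.33, 6.33, 4.08 and 116.68 FPKM in CON and at 5.49, 37.69, 3.01, 3.81 and 7.04 FPKM in AFB1_CUR. The AFB1 group held MX1 at 141.20 FPKM in replicate 1 and at 16.45, 95.47, 34.05 and 5.29 FPKM in the others. MX1 therefore exceeded 30 FPKM in 2 CON, 3 AFB1 and 1 AFB1_CUR libraries and was below 20 FPKM in all others. MX2 followed it at a lower level, with 1.83, 13.89, 1.73, 0.85 and 34.16 FPKM in CON, 15.98, 6.37, 41.15, 7.82 and 0.91 FPKM in AFB1, and 1.54, 7.90, 1.58, 0.77 and 1.14 FPKM in AFB1_CUR. Unlike MX1, MX2 was higher in AFB1 replicate 3 and in CON replicate 5 than in the liver-gene library AFB1 replicate 1.

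ISG15, a ubiquitin-like protein that is attached to other proteins, had the widest range of the members. Its CON values were 1.89, 13.30, 2.28, 0.41 and 75.72 FPKM, its AFB1 values 183.51, 6.62, 77.23, 20.77 and 1.39 FPKM, and its AFB1_CUR values 1.03, 24.25, 0.15, 0.83 and 2.53 FPKM. The highest of the 14 kidney-like libraries was 531-fold above the lowest. That lowest value, in AFB1_CUR replicate 3, rested on 6 reads, so the ratio has little precision at its lower end.

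IFIT2 and IFIT3 encode tetratricopeptide-repeat proteins that bind viral RNA. IFIT2 was at 1.41, 2.44, 1.45, 1.21 and 6.0 FPKM in CON, at 4.61, 2.82, 6.75, 1.75 and 0.66 FPKM in AFB1, and at 1.62, 3.13, 0.70, 0.76 and 1.78 FPKM in AFB1_CUR. IFIT3 was at 1.86, 4.93, 1.74, 1.86 and 16.70 FPKM in CON, at 6.34, 4.09, 17.13, 2.75 and 1.11 FPKM in AFB1, and at 2.12, 6.98, 1.39, 1.80 and 2.80 FPKM in AFB1_CUR. The lowest IFIT2 and IFIT3 values both came from AFB1 replicate 5, so the AFB1 group held the highest and the lowest kidney-like library of each.

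RSAD2 (viperin, an enzyme that makes a chain-terminating nucleotide) had the lowest median, 0.7331 FPKM over the 14 kidney-like libraries. It was at 0.24, 3.10, 0.68, 0.28 and 11.69 FPKM in CON, at 5.46, 0.79, 8.28, 1.43 and 0.44 FPKM in AFB1, and at 0.79, 3.10, 0.21, 0.39 and 0.62 FPKM in AFB1_CUR. IFI44, an interferon-inducible protein that restrains viral replication, was at 0.83, 2.40, 1.61, 0.72 and 3.78 FPKM in CON, at 4.44, 1.52, 5.66, 3.25 and 0.60 FPKM in AFB1, and at 1.21, 2.55, 1.24, 0.94 and 1.62 FPKM in AFB1_CUR. Both genes again overlapped between all groups.

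**Figure D1:**
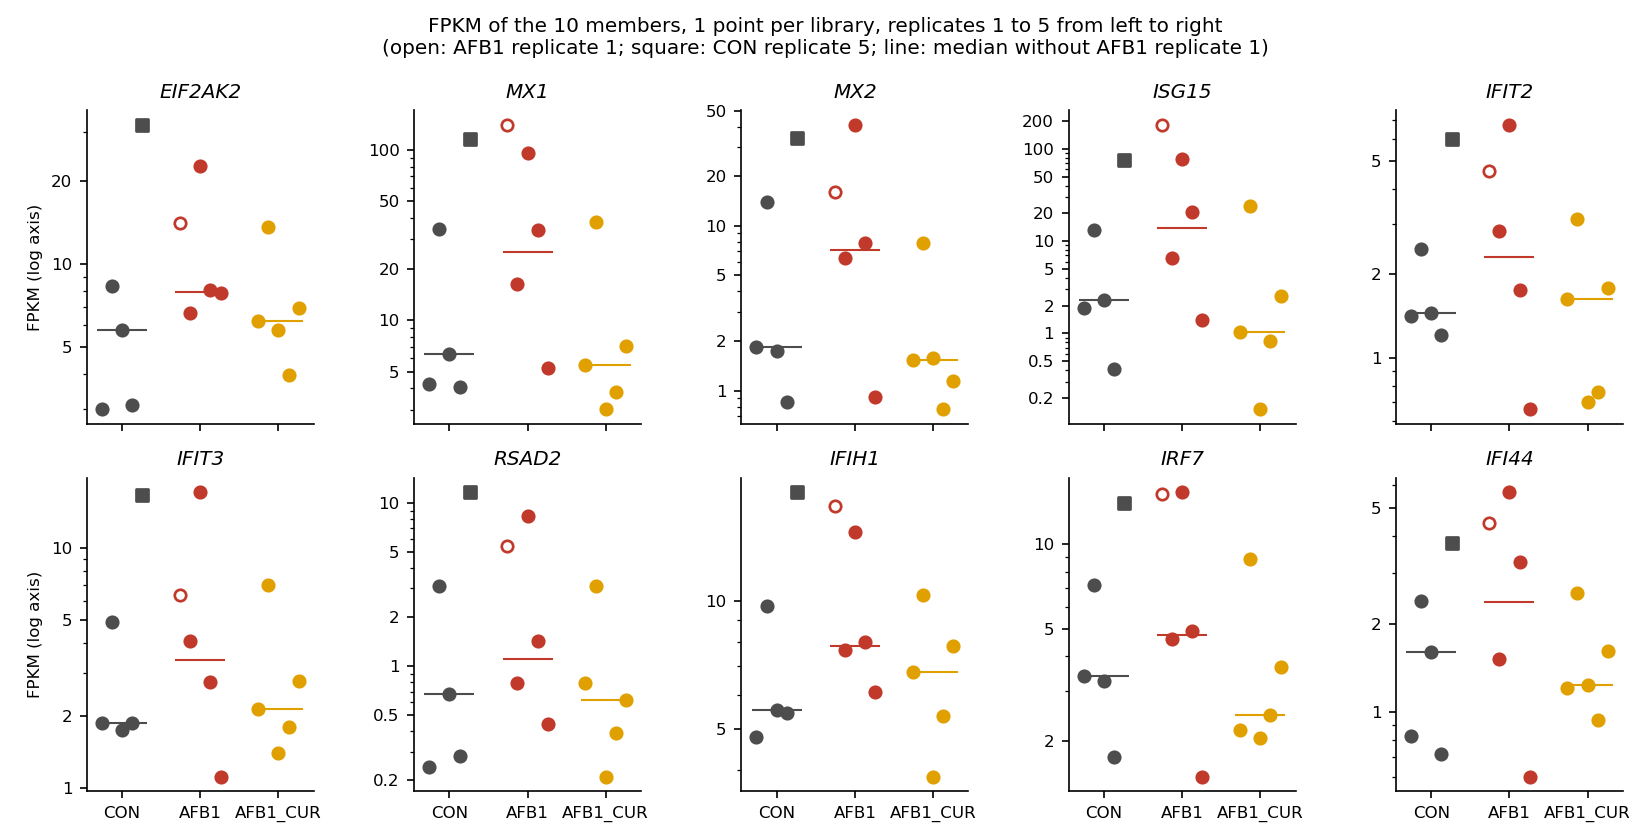
FPKM (log axis) of the 10 members in the CON, AFB1 and AFB1_CUR groups, with 1 point per library in the order of replicates 1 to 5, a line at the median without AFB1 replicate 1, an open point for AFB1 replicate 1 and a square for CON replicate 5. In every panel CON replicate 5 and AFB1 replicate 3 are the 2 highest of the filled points, and the 3 groups overlap.

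By median FPKM over the 14 kidney-like libraries the members ranked IFIH1 (7.208), EIF2AK2 (6.792), MX1 (6.681), IRF7 (3.528), IFIT3 (2.432), ISG15 (2.407), MX2 (1.779), IFIT2 (1.682), IFI44 (1.566) and RSAD2 (0.7331). Of the neighbours in that order, MX1 exceeded IRF7 in 14 of 14 libraries, with a mean difference of 1.41 ± 0.90 (SD, n = 14) on the log2(FPKM + 1) scale. In no other pair of neighbours was the mean difference larger than its SD over the 14 libraries. IFIH1 against EIF2AK2, for example, differed by -0.03 ± 0.43, and IFIT3 against ISG15 by -0.52 ± 1.22.

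The spread between libraries of one group was large against that of other genes. On the log2 CPM scale (counts scaled by library size), the SD within groups over the 14 kidney-like libraries was 0.60 for IFIH1, 0.95 for IFI44, 0.98 for EIF2AK2, 1.75 for MX1, 1.89 for MX2 and 2.56 for ISG15, against a median of 0.28 over all tested genes. ISG15 exceeded 99.7% of the tested genes in this SD, MX2 99.4%, RSAD2 99.3% and MX1 99.2%, and the member with the smallest SD, IFIH1, exceeded 86.9%. No test was made of this, since the members were chosen with their levels known.

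To place each library, a member's FPKM was divided by its median over the 14 kidney-like libraries, and the median of the 10 ratios was taken. This level was 5.78 in CON replicate 5, 5.70 in AFB1 replicate 3, 3.55 in AFB1 replicate 1, 2.69 in AFB1_CUR replicate 2 and 2.03 in CON replicate 2. It was 1.68 in AFB1 replicate 4, 1.49 in AFB1 replicate 2 and 1.04 in AFB1_CUR replicate 5, and from 0.486 (CON replicate 4) to 0.926 (CON replicate 3) in the remaining 7 libraries. The 5 libraries above 2 came from all 3 groups, 2 of them from CON, 2 from AFB1 and 1 from AFB1_CUR. The low end was mixed in the same way, with 0.545 in AFB1 replicate 5 and 0.553 in AFB1_CUR replicate 3.

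The genes whose pattern was most like that of the members were other interferon-stimulated genes. Likeness was Pearson's r with the mean standardised log2(FPKM + 1) of the members over the 14 kidney-like libraries, given as a description. The 10 closest of 13183 ranked genes were DHX58 (r = 0.989), RTP4 (0.988), XAF1 (0.982), CMPK2 (0.981), LOC105602911 (0.979, described as 2'-5'-oligoadenylate synthase 1), STAT2 (0.978), IFIT1 (0.976), ZNFX1 (0.973), PARP9 (0.972) and LOC101112122 (0.972, described as 2'-5'-oligoadenylate synthase 3-like). Without CON replicate 5 their r ran from 0.961 to 0.984, and the median r over all ranked genes was 0.147. All 10 had CON replicate 5 and AFB1 replicate 3 as their 2 highest kidney-like libraries. LOC105602911, for instance, ran from 6.97 FPKM in AFB1_CUR replicate 3 to 212.3 FPKM in CON replicate 5 and stood at 258.3 FPKM in AFB1 replicate 1.

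**Figure D2:**
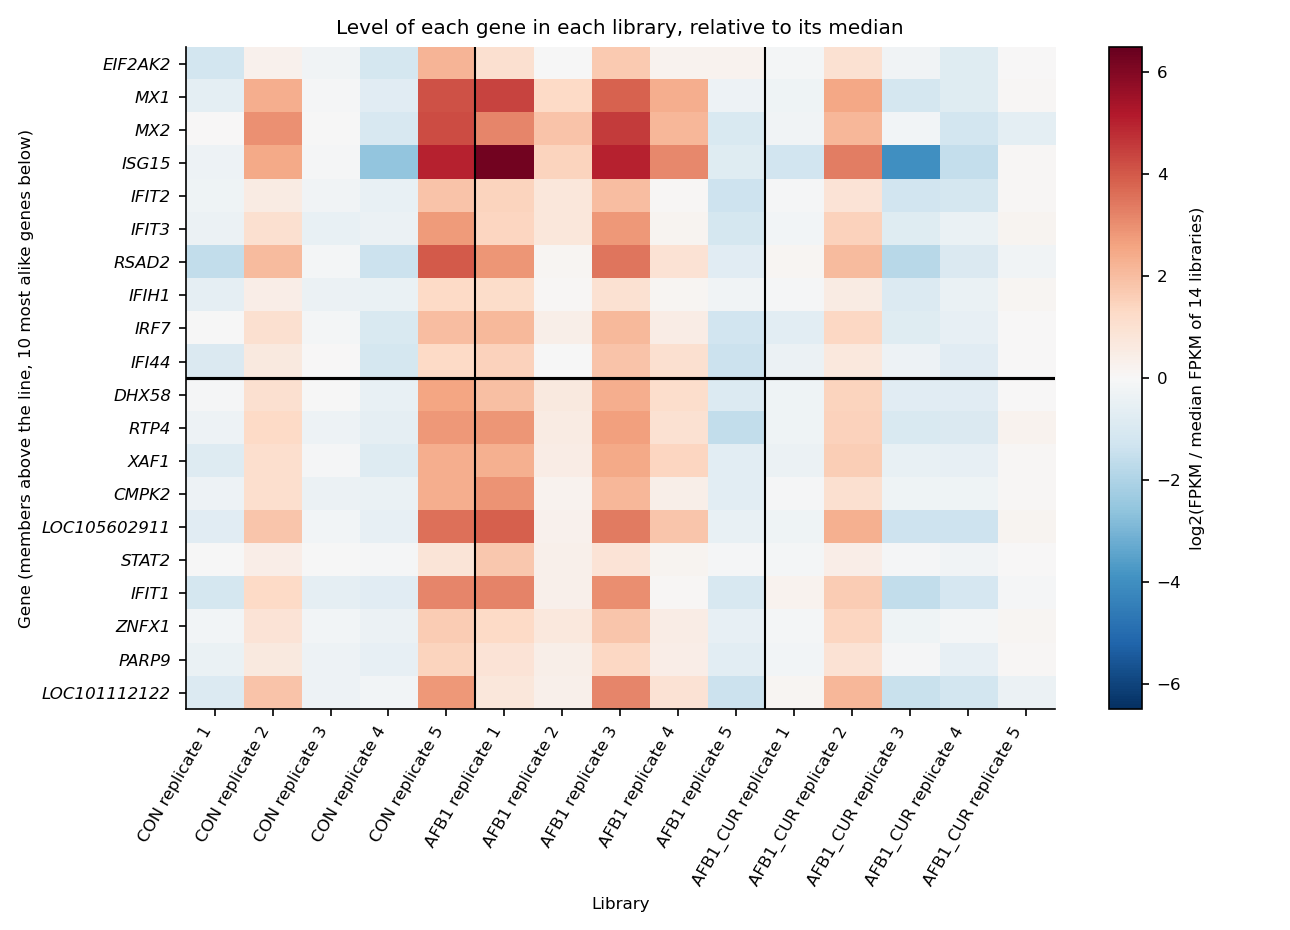
Colour gives log2 of FPKM over the gene's median FPKM in the 14 kidney-like libraries, with libraries on the horizontal axis by group and genes on the vertical axis, the 10 members above the line and the 10 most alike genes below it. The red columns are CON replicate 5, AFB1 replicate 1 and AFB1 replicate 3, followed by AFB1_CUR replicate 2 and CON replicate 2, and they cut across the groups.

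The comparison of AFB1 with CON asks whether the toxin shifted these genes. All 10 members had a higher estimate in the AFB1 group, with a median log2 fold change of 0.62 against 0.03 over all tested genes, but no member passed the study's screen (unadjusted p under 0.05 and a fold change over 1.5) in the edgeR quasi-likelihood test. That screen called 639 of the 13193 tested genes, 4.84%, and 3.84% as higher. MX1, for example, averaged 58.49 ± 57.89 FPKM (SD, n = 5) in AFB1 and 33.13 ± 48.42 FPKM (SD, n = 5) in CON, and EIF2AK2 averaged 11.82 ± 6.611 FPKM and 10.4 ± 12.18 FPKM. The estimates ranged from 0.30 for RSAD2 (standard error 1.10) to 2.1 for ISG15 (standard error 1.55), with 95% intervals of -2.05 to 2.65 and -1.22 to 5.43. EIF2AK2 had 0.38 with a 95% interval of -0.93 to 1.69, which includes 0 and also a doubling (1 on this scale). No member and no gene passed the Benjamini-Hochberg adjustment in edgeR (0% of tested genes, with 1071 genes at an unadjusted p under 0.05), and the adjusted p of the members ran from 0.662 to 0.955. DESeq2 called 7 genes after adjustment and limma 0, with no member among them. Of the 8 tested hepatocyte markers 8, and of the 7 tested macrophage markers 6, passed the screen as higher in the same comparison, and 0 of either list without AFB1 replicate 1. Of the 4 tested B and plasma cell markers 2 passed as higher with all libraries (JCHAIN at 2.65 and MZB1 at 3.44) and without AFB1 replicate 1 (2.94 and 3.75), and 0 without CON replicate 5. Of the 7 tested T cell markers 1 passed (CD8B at 1.51), and 0 without either library. The part of these cell types in the member estimates was not tested.

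Single libraries set the size of this difference. Without AFB1 replicate 1 the median of the members was 0.17, 0 of 10 passed the screen (0.652% of tested genes called higher), and RSAD2 turned to -0.25. Without CON replicate 5 the median was 1.44 and 5 of 10 passed it (3.21% of tested genes called higher), namely EIF2AK2 at 1.44 (standard error 0.46), MX1 at 2.68, ISG15 at 4.23, IFIH1 at 1.0 and IFI44 at 1.40. AFB1 replicate 1 was still in that fit, in which 8 of 8 hepatocyte markers (median 6.41) and 1 of 7 macrophage markers (median 1.2) passed as higher, and their part was not tested. CON replicate 5 was marked for its high EIF2AK2, so leaving it out raises the difference by construction, and the values without it are a description and not a test. With both libraries left out, EIF2AK2 was at 1.17 and was the 1 member past the screen thresholds, where 0.561% of the tested genes were called higher. Without AFB1 replicate 5, where IFIT2, IFIT3, IRF7 and IFI44 were lowest, 1 member passed, IFI44 at 1.22 (5.56% called higher). Without AFB1 replicate 3 the estimates of MX2, IFIT3 and RSAD2 became -0.02, -0.26 and -0.14. With sample quality weights, which gave AFB1 replicate 1 a weight of 0.06396 and CON replicate 5 a weight of 0.5834 against 1.348 to 1.968 for the other CON libraries, 4 members passed, EIF2AK2 at 1.07, MX1 at 1.87, ISG15 at 2.89 and IFI44 at 1.11, against 0.894% of tested genes called higher.

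The comparison of AFB1_CUR with AFB1 asks whether curcumin changed these genes in toxin-fed sheep. All 10 members had a lower estimate in the AFB1_CUR group, with a median log2 fold change of -1.43 against 0.00 over all genes, and 6 of 10 passed the screen, in which 3.39% of all tested genes were called lower. In the same comparison 8 of 8 tested hepatocyte markers (median -6.24) and 1 of 7 tested macrophage markers (CD14 at -1.52, list median -0.74) passed as lower, and without AFB1 replicate 1 these were 1 of 8 (ALB) and 0 of 7, and their part in the member estimates was not tested. The 6 members were ISG15 at -4.00 (standard error 1.69), MX1 at -2.89 (1.17), MX2 at -2.78 (1.11), IFIT2 at -1.36 (0.63), IFI44 at -1.35 (0.58) and IFIH1 at -0.97 (0.45). Their edgeR unadjusted p ran from 0.0251 to 0.0477, and the adjusted p of every member was 0.785, so none passed the adjustment (0% of tested genes, with 765 genes at an unadjusted p under 0.05). ISG15 averaged 5.756 ± 10.37 FPKM (SD, n = 5) in AFB1_CUR and 57.9 ± 76.41 FPKM (SD, n = 5) in AFB1. The 4 members that missed the screen were IRF7 at -1.50 (edgeR unadjusted p = 0.0504), RSAD2 at -2.08, IFIT3 at -1.32 and EIF2AK2 at -0.99. DESeq2 called 2 genes and limma 0 after adjustment, and the smallest DESeq2 adjusted p of a member was 0.754.

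The calls depended on single libraries, while 10 of 10 estimates stayed negative under every single omission, for example between -3.69 and -2.13 for MX2 and between -6.16 and -2.37 for ISG15. The members vary together, with a median r of 0.925 over their pairs in the 14 kidney-like libraries, so the 10 signs are not separate observations. Without AFB1 replicate 1 the median was -1.05 and 1 of 10 remained past the screen, MX2 at -2.55 (standard error 1.14, edgeR unadjusted p = 0.0422), where 0.531% of the tested genes were called lower. Without AFB1 replicate 3 the count was 2, MX1 and ISG15 (4.57% of tested genes called lower). Without AFB1_CUR replicate 1, 3, 4 or 5 in turn it was 0, with 2.3%, 2.3%, 2.34% and 2.68% of tested genes called lower. Without AFB1_CUR replicate 2, the high library of that group, it was 9 (3.17% called lower), and without CON replicate 5, which enters through the shared estimate of the spread, it was 8 (3.14% of tested genes called lower). On log2(FPKM + 1) with limma, where the median of all genes was 0.17, the members had a median of -0.69, the 10 estimates stayed negative and ISG15 was the 1 member past the screen, at -2.78 (0.227% called lower). With sample quality weights 10 of 10 passed (1.44% called lower). Those weights were low for AFB1_CUR replicate 2 (0.4201), the high library of its group, and for AFB1 replicate 5 (0.4995), a low one. They were 2.054 for AFB1 replicate 3, a high library, and 0.06396 for AFB1 replicate 1, also high. The part of the weights in that count was not tested. Without both AFB1 replicate 1 and CON replicate 5, MX2 was the 1 member past the screen, again against 0.531% of tested genes.

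Between AFB1_CUR and CON, which differ in both additives, all 10 members had a lower estimate, with a median log2 fold change of -0.85, and 0 of 10 passed the screen (0.243% of tested genes called lower). No gene passed the edgeR adjustment (0% of tested genes, with 360 genes at an unadjusted p under 0.05), against 1 gene with DESeq2 and 0 with limma. MX2 came nearest at -2.15 (standard error 1.09, edgeR unadjusted p = 0.0674) and was the 1 member that passed with DESeq2 (0.318% called lower). Without AFB1 replicate 1 the count was 0 too (0.576% of tested genes called lower). Without CON replicate 5 the median was -0.04, 0 passed (0.356% called lower), and EIF2AK2 at 0.45, ISG15 at 0.23, IFIT3 at 0.12, IFI44 at 0.05 and IFIH1 at 0.03 changed sign. Without AFB1_CUR replicate 2 there were 4 members past the screen as lower, MX1 at -2.79, MX2 at -3.06, ISG15 at -4.05 and RSAD2 at -2.67, where 0.258% of tested genes were called lower. Without CON replicate 1, 3 or 4 in turn there was 1, MX2 each time, where 0.189%, 0.22% and 0.273% were called lower. With both AFB1 replicate 1 and CON replicate 5 left out the count was 0 (0.705% called lower). Every pair of these comparisons shares a group and the members vary together, so the signs are not separate evidence.

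No member separated any 2 groups, and few of all tested genes did. The FPKM ranges overlapped for 10 of 10 members in each of the 3 comparisons, with all libraries and without AFB1 replicate 1. Among all tested genes the groups did not overlap for 1.02% between AFB1 and CON, 0.493% between AFB1_CUR and AFB1 and 0.72% between AFB1_CUR and CON, and without AFB1 replicate 1 for 1.54%, 0.682% and 0.72%.

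**Figure D3:**
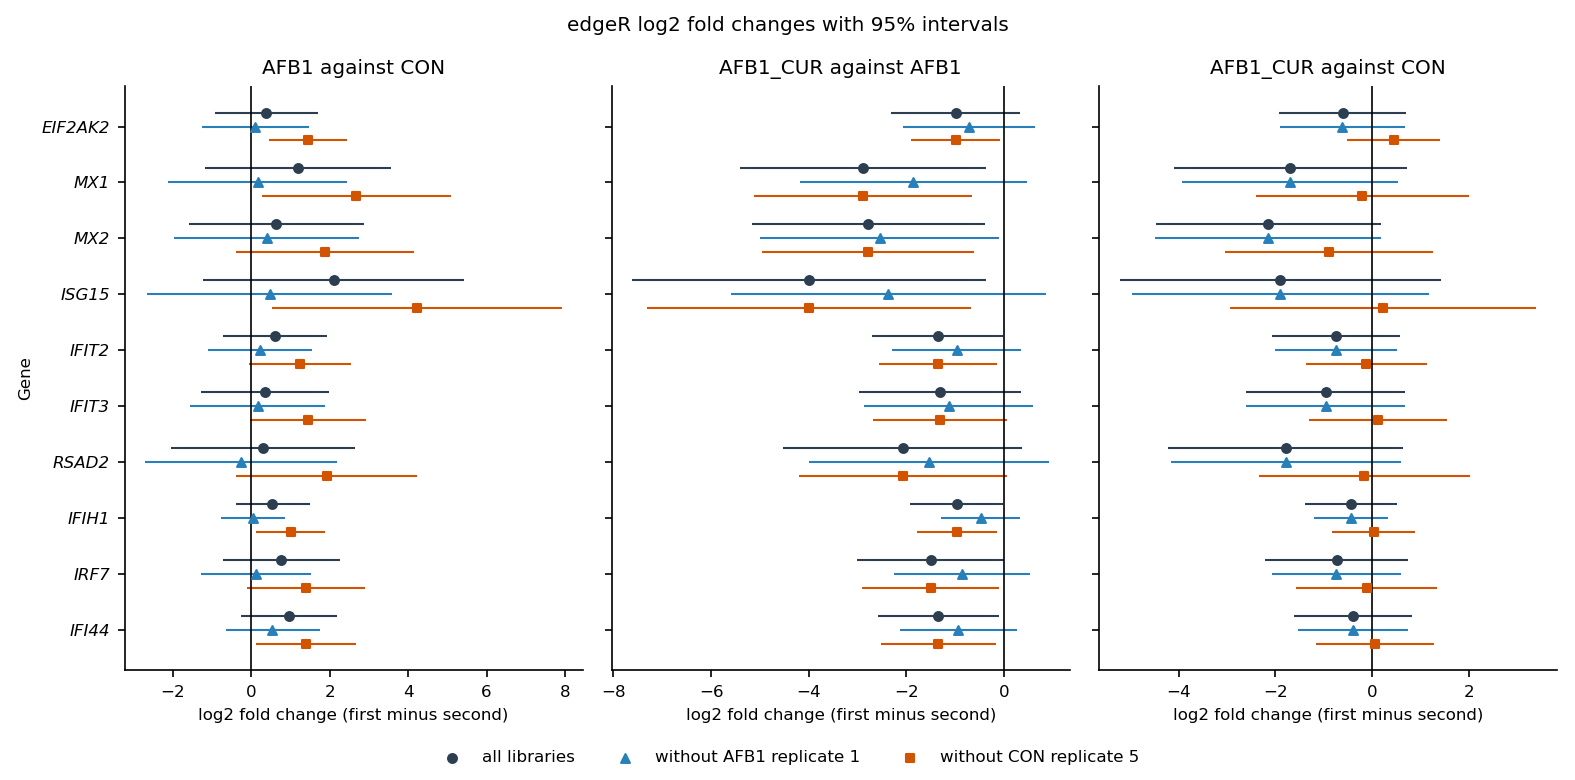
The edgeR log2 fold change of each member (points, horizontal axis) with its 95% interval (lines) in the 3 comparisons, with all libraries, without AFB1 replicate 1 and without CON replicate 5. Most intervals include 0, the AFB1 against CON estimates move right when CON replicate 5 is left out, and the AFB1_CUR against AFB1 estimates move toward 0 when AFB1 replicate 1 is left out.

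EIF2AK2 is also one of several kinases that phosphorylate eIF2α, so its course was set beside both families. Across the 14 kidney-like libraries its log2(FPKM + 1) correlated with the other 9 members at r = 0.837 (IFIT2) to 0.935 (RSAD2), with a median of 0.878. Spearman's rho had a median of 0.798 and ran from 0.732 to 0.943. These values include CON replicate 5, whose EIF2AK2 was known when the genes were chosen, so they are a description. In the permutation test over all 14, r passed the adjustment over 13192 genes for 4 of 9 members (0.106% of all genes) and rho for 0 of 9, and nothing is read from those counts.

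Without CON replicate 5, r ran from 0.768 (IFIT2, permutation p = 0.00314, adjusted p = 0.402) to 0.890 (RSAD2, permutation p = 2e-05, adjusted p = 0.106). In the same 13 libraries rho ran from 0.67 for MX2 and IFIT3 (permutation p = 0.0148 and 0.0146) to 0.929 for IFIH1 (permutation p = 4e-05). The direction was positive for 9 of 9 members, and 0 of 9 passed the adjustment for r (0% of all genes) or for rho. Without the 2 libraries farthest from the median of EIF2AK2, CON replicate 5 and AFB1 replicate 3, the median r was 0.693 and r ran from 0.538 to 0.783, with 0 of 9 past the adjustment. With group means removed r ran from 0.83 to 0.958, although none passed the adjustment in that setting. With CON replicate 5 kept, the count past the adjustment was also 0 without CON replicate 4, AFB1 replicate 3 or AFB1_CUR replicate 2, and it was 9 without AFB1 replicate 5 (0.402% of all genes) or with all 15 libraries (0.296%). Counts that keep CON replicate 5 rest on a value known when the genes were chosen, so nothing is read from them either. Over the 45 pairs of members r ran from 0.837 to 0.990 with a median of 0.925, and the median was 0.932 with group means removed.

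The other eIF2α kinases had lower r with EIF2AK2 than the members did over the 14 libraries, a difference that was not tested. These libraries include CON replicate 5, whose EIF2AK2 was known at the choice, so the values and their p are a description. EIF2AK1 (heme-regulated) had r = 0.310 with EIF2AK2, EIF2AK3 (PERK, activated by unfolded proteins in the endoplasmic reticulum) 0.226 and EIF2AK4 (GCN2, activated by uncharged tRNA) 0.257, all with an adjusted permutation p of 0.999. ATF4, the transcription factor translated when eIF2α is phosphorylated, had r = 0.379 (adjusted permutation p = 0.999). Without CON replicate 5 alone, r was 0.298 for EIF2AK1, 0.33 for EIF2AK3, 0.411 for EIF2AK4, 0.465 for ATF4 and 0.591 for PRKRA. The members then ran from 0.768 to 0.890. Without CON replicate 5 and AFB1 replicate 3, r was 0.117 for EIF2AK1 and 0.418 for EIF2AK4, below the range of the members, and it was 0.552 for ATF4, 0.622 for EIF2AK3, 0.859 for EIF2S1 (the eIF2α subunit itself) and 0.803 for PRKRA (an activator of EIF2AK2), inside or above the 0.538 to 0.783 of the members. EIF2AK1 ran only from 13.74 to 19.71 FPKM over the 15 libraries and was at 17.97 FPKM in CON replicate 5, where EIF2AK2 was at 31.84 FPKM. Of the 10 genes of the eIF2α list, 0 passed the screen in any comparison with all libraries or without AFB1 replicate 1, and EIF2AK2 was the 1 gene that did so in both AFB1 comparisons without CON replicate 5. Its 2 most abundant genes were ATF4, at a median of 29.41 FPKM, and DNAJC3 (an inhibitor of EIF2AK2 and EIF2AK3), at 25.20 FPKM.

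**Figure D4:**
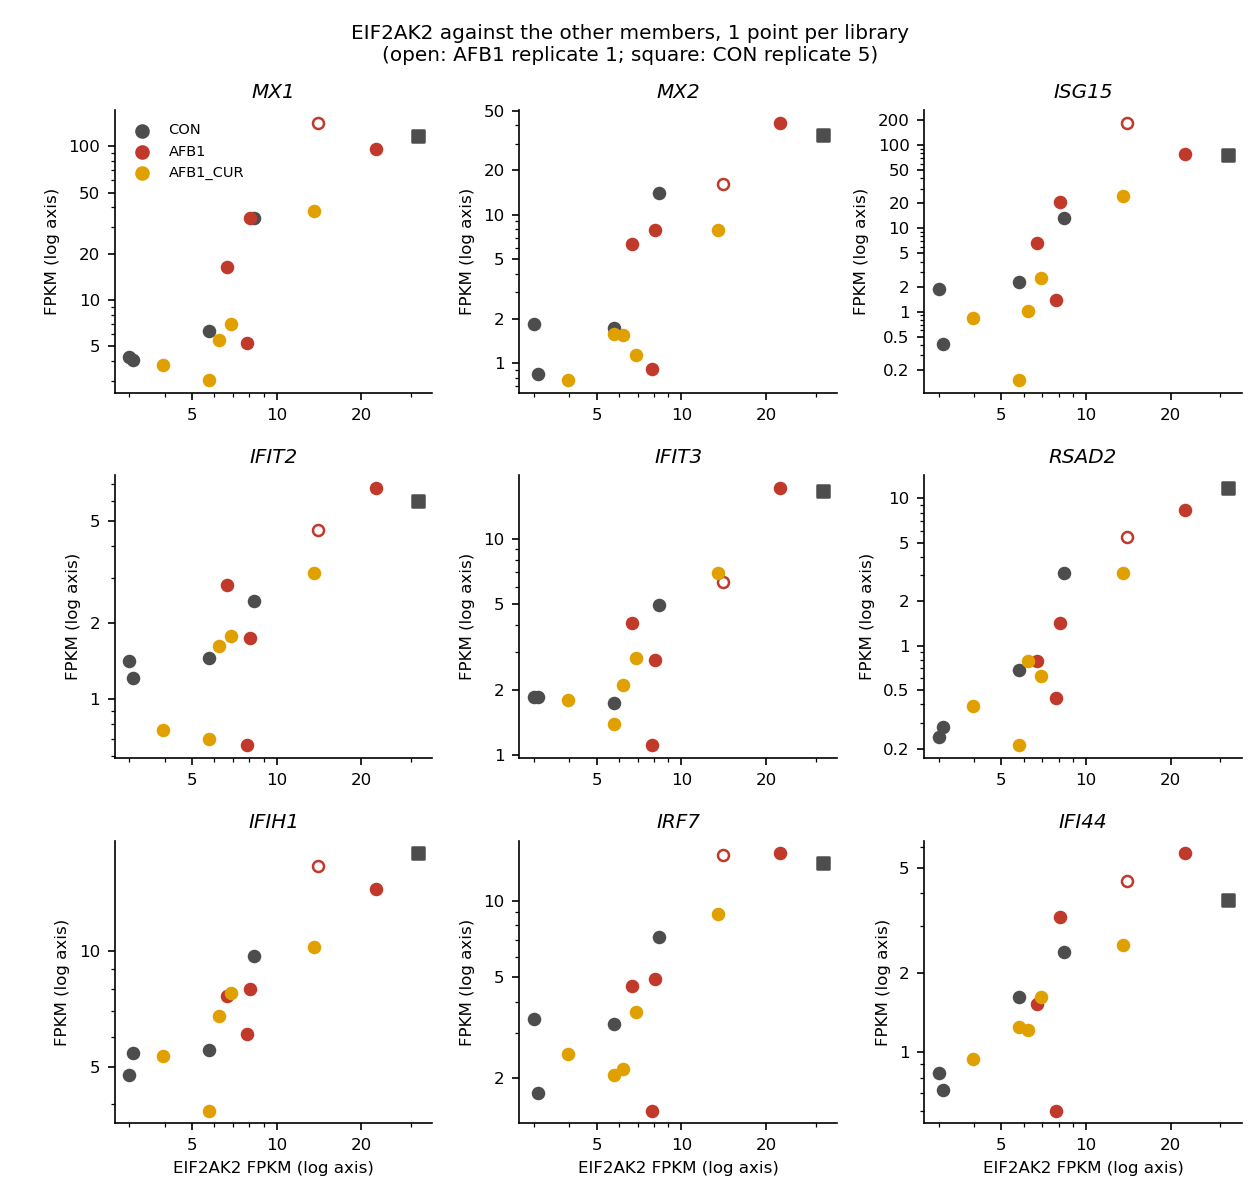
EIF2AK2 FPKM (horizontal, log axis) against the FPKM of each of the other 9 members (vertical, log axis), with 1 point per library coloured by group, an open point for AFB1 replicate 1 and a square for CON replicate 5. The upper right of each panel holds CON replicate 5 and AFB1 replicate 3, and points of the 3 groups mix along the rest of the range.

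The interferon genes themselves were hardly detected. IFNG, the type II interferon, reached at most 0.57 FPKM (AFB1_CUR replicate 2) and 30 reads (CON replicate 2), and CON replicate 5 held 0 reads of it, while IFNE had a median of 0.03031 FPKM and IFNK was above 0 in 1 library. In a set chosen by description after the values were seen, 36 genes described as interferon alpha, beta, omega, tau or lambda had a highest value of 0.726 FPKM, and 0 of 36 reached 1 FPKM in any library. Their summed FPKM was 1.03 in CON replicate 5 and 1.59 in AFB1 replicate 3, inside the range of 0.770 to 3.88 over all libraries. Many of these genes are near-identical copies, so their separate counts are uncertain, and a kidney sampled once cannot show an earlier pulse.

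Of the receptors and their kinases, TYK2, at a median of 16.87 FPKM, and IFNGR2, at 16.12 FPKM, were the most abundant of the 9 tested genes. Between AFB1 and CON, 2 of 9 passed the screen as higher, IFNAR1 at 0.68 (standard error 0.30) and IFNGR2 at 1.57 (0.60), and between AFB1_CUR and AFB1 IFNGR2 passed as lower, at -1.53. IFNGR2 was at 96.27 FPKM in AFB1 replicate 1 and at 11.78 to 26.50 FPKM elsewhere, and without that library 0 of 9 passed in any comparison. With it kept and CON replicate 5 omitted, 1 of 9 passed as higher between AFB1 and CON and 1 of 9 as lower between AFB1_CUR and AFB1. Of all tested genes, 3.21% were called higher and 3.14% lower in those comparisons.

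Of the transcription factors downstream of the receptor, IRF9 and STAT2 had their highest kidney-like levels in the same 2 libraries as the members. IRF9 was at 24.40 FPKM in CON replicate 5 and 21.72 FPKM in AFB1 replicate 3 and as low as 3.46 FPKM in AFB1 replicate 5. IRF3, which is present before infection, had a median of 19.15 FPKM and ran only from 13.55 to 26.43 FPKM. Of the 8 tested factors 1 passed the screen, STAT2 between AFB1_CUR and AFB1 at -1.14 (standard error 0.40, edgeR unadjusted p = 0.0132, adjusted p = 0.785), and 0 of 8 passed without AFB1 replicate 1, where STAT2 had stood at 26.79 FPKM. With CON replicate 5 omitted instead, 2 of 8 passed as higher between AFB1 and CON and 2 of 8 as lower between AFB1_CUR and AFB1. Of all tested genes, 3.21% were called higher and 3.14% lower in those comparisons.

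Among 12 tested nucleic acid sensors and adaptors, RIGI and DHX58 had their highest values in the same libraries as the members and TLR3 and TLR7 did not. RIGI, the sensor of short double-stranded RNA, was at 20.67 FPKM in CON replicate 5 and 14.36 FPKM in AFB1 replicate 3, with 1.75 to 8.56 FPKM in the other 13 libraries, and DHX58, a regulator of both helicase sensors, was at 20.47 and 17.67 FPKM. TLR3, a sensor of double-stranded RNA in endosomes, was at 1.37 FPKM in CON replicate 5, its lowest value, and at 7.17 FPKM in AFB1 replicate 1. MYD88 and TBK1, signalling proteins of several pathways, had the highest medians, 9.705 and 7.587 FPKM. DHX58 passed the screen as lower between AFB1_CUR and AFB1 at -1.54 (standard error 0.70) and TLR3 as higher between AFB1 and CON at 1.22 (0.45), both lost without AFB1 replicate 1. TLR7, a sensor of single-stranded RNA, passed between AFB1_CUR and CON at 1.19 (0.49). It kept that call without AFB1 replicate 1 (1.19, standard error 0.46) and also passed between AFB1 and CON there, at 1.21 (0.48). Without CON replicate 5, 0 of 12 passed between AFB1_CUR and CON, so the TLR7 call was lost, while 2 of 12 passed as higher between AFB1 and CON and 2 of 12 as lower between AFB1_CUR and AFB1. Of all tested genes, 3.21% were called higher and 3.14% lower in the latter comparisons. The edgeR adjusted p of TLR7 was 0.823 or more in the comparisons that it passed. TLR7 was lowest in CON replicate 5 at 0.33 FPKM and was highest in AFB1_CUR replicate 2 at 3.71 FPKM.

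Of 38 other interferon-stimulated genes tested, 9 passed the screen as lower between AFB1_CUR and AFB1, CMPK2 (-1.88), IFI35 (-0.65), IFITM3 (-1.84), LGALS3BP (-0.94), RTP4 (-2.03), SIGLEC1 (-2.21), TDRD7 (-0.69), UBE2L6 (-1.17) and XAF1 (-1.65). In that fit 3.39% of all tested genes were called lower. The 38 had a median log2 fold change of -0.73 against 0.00 over all genes. Without AFB1 replicate 1 the median was -0.42 and 0 of 38 passed. Between AFB1 and CON the count was 1 of 38, SIGLEC1 (2.17, a macrophage lectin), where 3.84% of all tested genes were called higher, and it was 18 of 38 without CON replicate 5, where 3.21% were. The count between AFB1_CUR and AFB1 was 11 of 38 in that setting, with 3.14% of all tested genes called lower. AFB1 replicate 1 was still in that fit, in which 8 of 8 hepatocyte markers passed in both comparisons. CON replicate 5 was marked for its high EIF2AK2, so the counts without it are a description. LAP3 (a peptidase) and LGALS3BP were the most abundant, at medians of 127.5 and 53.64 FPKM. In CON replicate 5, 35 of the 38 genes stood above their median over the 14 kidney-like libraries, in AFB1 replicate 3 37 and in CON replicate 2 37, against 1 in CON replicate 4 and 2 in AFB1 replicate 5.

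Negative regulators gave a mixed picture. USP18, which removes ISG15 and blocks the receptor, was at 25.27 FPKM in CON replicate 5 and 14.72 FPKM in AFB1 replicate 3 and at 3.70 to 11.30 FPKM elsewhere. PTPN6 (a median of 10.72 FPKM) and PTPN2 (8.294 FPKM), phosphatases that act on JAK and STAT proteins, led the list in abundance. SOCS3 passed the screen as higher between AFB1 and CON at 2.22 (standard error 0.81) and as lower between AFB1_CUR and AFB1 at -1.78 (0.80). SOCS3 was at 18.55 FPKM in AFB1 replicate 1 and at 0.83 to 5.90 FPKM elsewhere, and without that library 0 of 7 feedback genes passed. ISG15, which also belongs to this list, was the other gene past the screen between AFB1_CUR and AFB1. Leaving out CON replicate 5 gave 3 of 7 higher between AFB1 and CON and 3 of 7 lower between AFB1_CUR and AFB1. Of all tested genes, 3.21% were called higher and 3.14% lower in those comparisons. CON replicate 5 was marked for its high EIF2AK2, so these counts are a description.

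Markers of other cells were set beside the member levels in each library, since fewer cells of a type and less RNA per cell cannot be told apart in whole tissue. CON replicate 5, the highest of the 14 for 4 members and the second highest for the other 6, had the lowest of the 14 kidney-like sums for T cell markers (7 genes, 14.01 FPKM against 23.53 to 138.2 FPKM), for B and plasma cell markers (7 genes, 8.451 FPKM), for NK cell markers (4 genes, 16.96 FPKM), for macrophage markers (8 genes, 57.35 FPKM) and for plasmacytoid dendritic cell markers (4 genes, 5.884 FPKM). Its proximal tubule markers (8 genes) summed to 2436 FPKM, the second highest of 14. AFB1_CUR replicate 2, the third highest in most members, had the highest T cell (138.2 FPKM), B and plasma cell (1070 FPKM), macrophage (361.6 FPKM) and plasmacytoid dendritic cell (63.92 FPKM) sums and the lowest proximal tubule sum, 925.7 FPKM. Its NK cell sum was 57.98 FPKM. AFB1 replicate 3 lay between the other two for T cell (48.97 FPKM), B and plasma cell (25.09 FPKM), macrophage (165.5 FPKM) and plasmacytoid dendritic cell markers (18.59 FPKM), and above both for NK cell markers (83.06 FPKM). For 4 of these 5 immune lists, CON replicate 5 held the lowest and AFB1_CUR replicate 2 the highest kidney-like sum, and any link with the member levels was not tested.

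By group, T cell marker sums ran from 14.01 to 46.58 FPKM in CON, 23.53 to 103.8 FPKM in AFB1 and 32.01 to 138.2 FPKM in AFB1_CUR. B and plasma cell marker sums ran from 8.451 to 40.34 FPKM in CON, 11.82 to 686.4 FPKM in AFB1 and 24.95 to 1070 FPKM in AFB1_CUR. Between AFB1_CUR and CON, where the members had lower estimates, JCHAIN passed the screen as higher both in the full set of libraries and when AFB1 replicate 1 was left out (3.04 in each), CD8B (1.26) and CD68 (1.95) passed as higher without AFB1 replicate 1 alone, and 0 markers of the T cell, B and plasma cell and macrophage lists passed without CON replicate 5. Macrophage marker sums ran from 57.35 to 136.4 FPKM in CON, from 60.68 to 492.3 FPKM in AFB1 (to 244.2 FPKM without replicate 1) and from 79.26 to 361.6 FPKM in AFB1_CUR. The hepatocyte marker sum was 385.3 FPKM in AFB1 replicate 3 and 361.6 FPKM in CON replicate 5, the 2 highest of the 14 kidney-like libraries, with most of it from SERPINA1 at 263.15 and 236.95 FPKM and with the defining hepatocyte gene ALB at 11.76 and 0.71 FPKM. The part of these cell types in the member levels was not tested.

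**Figure D5:**
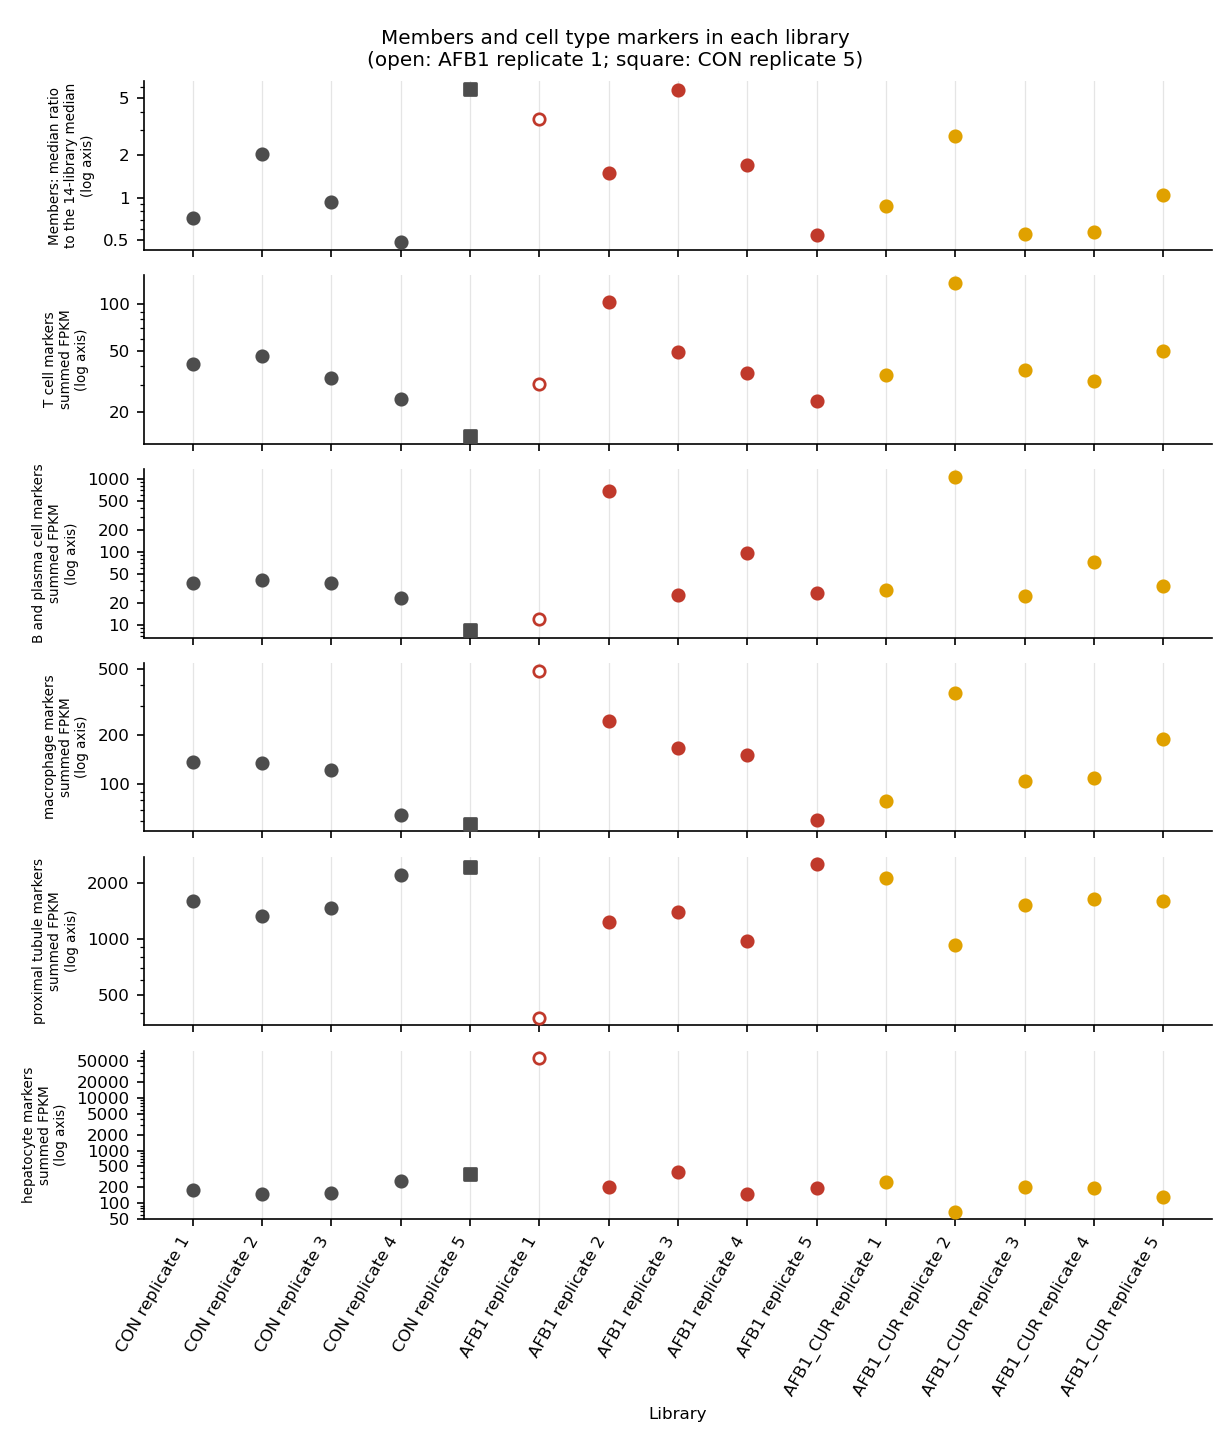
The top panel gives the median ratio of the 10 members to their median over the 14 kidney-like libraries, and the lower panels give summed FPKM of T cell, B and plasma cell, macrophage, proximal tubule and hepatocyte markers (all log axes), with 1 point per library coloured by group. CON replicate 5 (square) is highest in the top panel at 5.78 and lowest of the filled points for the 3 immune lists, whereas AFB1_CUR replicate 2, at 2.69, is highest for them.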

How the data were processed

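Kidney poly(A) libraries (dUTP, paired-end, RNA integrity number over 7) were sequenced by the authors. The submitters' processing notes name cutadapt 1.9, HISAT2 2.2.1, StringTie 2.1.6, DESeq2 and edgeR. How reads were counted, with which strand setting and on which build is not stated in those notes or in the methods used here. The deposited table holds raw read counts and FPKM per gene for 15 libraries, as made by the authors. Coordinates were identical to those of RefSeq's sheep annotation for 24848 of 24947 genes matched by symbol, including all 10 members, and chromosome numbers were taken from it.

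The 13193 genes that reached 1 FPKM in 5 or more libraries were tested on counts with edgeR 4.0.16 (TMM, quasi-likelihood, group only, all 15 libraries in 1 model, R 4.3.3). The standard error was the log2 fold change divided by the root of F, and the 95% interval used the t quantile of the fit. Calls followed the study's screen, and Benjamini-Hochberg adjustment over all tested genes was counted separately. Correlations were tested with 100000 resamples, two-sided. The named genes were all 10 members, every gene of the pathway lists past the screen with all libraries or without AFB1 replicate 1, the 2 most abundant of each such list and the 10 genes most like the members. Other genes of the lists named in the text were chosen after their values were seen. The members and lists were chosen with earlier results of these data known. Alternatives were the RLE size factors, DESeq2 1.42.0, no filter, limma 3.58.1 on log2(FPKM + 1) and log2(FPKM + 0.1), a replicate block, only the 2 groups compared, sample quality weights and leaving out each library. The scripts were tested on simulated data. Sequences of the genes were not used here, and 1 gene of the transcription factor list that the rule names is not reported here.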

Additional observations from a re-analysis of the deposited data

Results flagged for a closer look

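Within each group of 5 libraries, the highest and the lowest FPKM of each member were compared with the nearest of the others by Dixon's ratio (the gap divided by the group's range, critical value 0.71). Of 30 groups of values, 12 held a library that stood apart, each at the high end. Among independent groups of values chosen without sight of the data, chance flags about 1 in 20. That rate cannot be set against these 12, because the EIF2AK2 value in CON replicate 5 was named when the genes were chosen and the 10 members are correlated with each other.

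In the CON group the library was CON replicate 5 in 6 cases: EIF2AK2 at 31.84 FPKM (the next library at 8.33 FPKM), MX1 at 116.68 FPKM (34.33 FPKM), ISG15 at 75.72 FPKM (13.30 FPKM), IFIT2 at 6.0 FPKM (2.44 FPKM), IFIT3 at 16.70 FPKM (4.93 FPKM) and RSAD2 at 11.69 FPKM (3.10 FPKM). In the AFB1_CUR group it was AFB1_CUR replicate 2 in the other 6 cases: MX1 at 37.69 FPKM (7.04 FPKM), MX2 at 7.90 FPKM (1.58 FPKM), ISG15 at 24.25 FPKM (2.53 FPKM), IFIT3 at 6.98 FPKM (2.80 FPKM), RSAD2 at 3.10 FPKM (0.79 FPKM) and IRF7 at 8.85 FPKM (3.65 FPKM). In the AFB1 group no library stood apart for any member, as replicates 1 and 3 were both high. AFB1 replicate 1, the library with liver genes, was kept here, and the ratio was not taken without it.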

How the results depend on the processing

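Between AFB1 and CON the 10 members gave 240 estimates under alternatives, of which 223 kept their direction and their side of the screen, 11 came to pass it and 6 changed sign. Between AFB1_CUR and AFB1 166 of 240 kept both, 56 no longer passed it, 18 came to pass it and 0 changed sign. Between AFB1_CUR and CON 222 kept both, 8 came to pass it and 10 changed sign. Over the libraries left out singly, the members past the screen ranged from 0 to 5 (all genes 231 to 959) between AFB1 and CON, from 0 to 9 (124 to 924) between AFB1_CUR and AFB1 and from 0 to 4 (65 to 216) between AFB1_CUR and CON. With both AFB1 replicate 1 and CON replicate 5 left out, the members numbered 1, 1 and 0 in the same order and all genes 227, 129 and 217. Without a filter on low values all genes past the screen were 1778, 1597 and 699, and limma on log2(FPKM + 1) gave 258, 184 and 52. With limma 1 member passed between AFB1_CUR and AFB1, also on log2(FPKM + 0.1), where all genes were 347 and 283 in the first 2 comparisons. Sample quality weights gave 4 and 10 members in the first 2 comparisons and 298, 327 and 206 genes. DESeq2 let 1 member pass between AFB1_CUR and CON. Fits of only the 2 groups compared gave 302 genes between AFB1_CUR and AFB1 and 225 between AFB1_CUR and CON. More genes were tested without the filter and fewer libraries entered the fits that left some out, and the cause of the other changes was not tested.

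Signs changed as libraries were left out. Between AFB1 and CON the log2 fold change ranged from -0.02 to 1.88 for MX2, -0.26 to 1.44 for IFIT3 and -0.25 to 1.92 for RSAD2. Between AFB1_CUR and CON it ranged from -0.89 to 0.45 for EIF2AK2, -4.05 to 0.23 for ISG15, -1.44 to 0.12 for IFIT3, -0.58 to 0.03 for IFIH1 and -0.59 to 0.05 for IFI44, and without both libraries it was 0.45, 0.22, 0.12, 0.03 and 0.05. Of the correlations with EIF2AK2, 0 members passed the adjustment with Spearman's rho (chosen after seeing the data), 0 without the 2 farthest libraries, 0 with group means removed, 9 with all 15 libraries and 0 to 9 as libraries were left out singly. Nothing is read from the counts that keep CON replicate 5, whose EIF2AK2 value was known at the choice. ISG15 was at 87 and 14 reads in CON replicates 1 and 4, 56 in AFB1 replicate 5 and 45, 6 and 30 in AFB1_CUR replicates 1, 3 and 4. RSAD2 was at 61 and 51 reads in CON replicates 1 and 4, 95 in AFB1 replicate 5 and 42 and 75 in AFB1_CUR replicates 3 and 4. These values are limited by depth, counting error included, and the other members held over 100 reads in every library.

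Whether the replicate numbers paired the samples was not tested. Deviations from the group means correlated at -0.277 to 0.389 over 15 pairs with the same number (median 0.077, 6 over 0.1) and at -0.482 to 0.383 over 60 other pairs (median -0.0355, 13 over 0.1). Among pairs with the same number, those of replicate 2 were highest, at 0.325, 0.389 and 0.375. The lowest, at -0.277, was CON with AFB1_CUR replicate 1. With the replicate block 0, 3 and 0 members passed the screen in the 3 comparisons, the 3 being MX1, MX2 and ISG15 between AFB1_CUR and AFB1, and all genes were 327, 175 and 187.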
